A study of Mus musculus with 8 samples.

Results

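Cells take up lipoproteins through a family of endocytic lipoprotein receptors and store surplus fatty acids as triglycerides and cholesteryl esters in lipid droplets, whose surface carries perilipins. The VLDL receptor is known as a hypoxia-inducible member of that family, and Hilpda, itself induced by hypoxia-inducible factor (HIF), is known to inhibit the lipase ATGL (gene Pnpla2) and to favour droplet storage. FIH, encoded by Hif1an, hydroxylates an asparagine of HIF-α and limits its transcriptional activity when oxygen is available.

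Examined here were 10 genes of these steps out of 53700 in the count table: the receptors Vldlr, Lrp8 and Lrp1, the fatty acid transporter Cd36, the fatty acid binding protein gene Fabp5, the droplet coat genes Plin2 and Plin3, the lipase gene Pnpla2 and its inhibitors Hilpda and G0s2. The list was chosen by the level of Vldlr, a hypoxia-induced gene with almost no reads in FIH-KO cells, and the other 9 genes were added for their function. Vldlr is therefore described without a test. Of the 10 genes, 8 passed the filter on low counts (13933 genes tested in all), while Cd36 and G0s2 did not.

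RNA-Seq was carried out in LLC cells, a mouse Lewis lung carcinoma line. The 4 groups were WT cells in normoxia (21% O2), WT cells in hypoxia (1% O2), FIH-KO cells in normoxia and FIH-KO cells in hypoxia, each kept for 16 hours and each with 2 libraries. The knockout was made with a CRISPR/Cas9 guide aimed at exon 2 of Hif1an and single-cell dilution. Whether the FIH-KO libraries come from 1 clone, and whether the libraries of a group come from separate cultures, is not given in the sources used here, so that p-values measure only the spread between these samples, which may be technical.

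Library totals ran from 14519731 to 18177016 counts. Levels are CPM (counts scaled by library size and TMM factor), given as mean ± SD of 2 libraries. Counts are listed in the order replicate 1, replicate 2. Log2 fold changes are FIH-KO over WT or hypoxia over normoxia, with an approximate standard error (SE). The SE was back-calculated as the absolute log2 fold change over the square root of the test's F statistic. Every adjusted p is from edgeR's quasi-likelihood test with Benjamini-Hochberg adjustment over all 13933 genes, with a threshold of 0.05, unless DESeq2 is named. Genes past that threshold are said to have risen or fallen.

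Hif1an (ENSMUSG00000036450.5), the targeted gene, had 1316 and 1389 reads in WT normoxia, 1609 and 1231 in WT hypoxia, 584 and 673 in FIH-KO normoxia and 729 and 784 in FIH-KO hypoxia. All 4 FIH-KO libraries were below all 4 WT libraries, as the labels say, although reads of the gene were still present. The counts cover the whole gene and do not resolve the targeted exon. The log2 fold change of FIH-KO over WT was -1.20 in normoxia (SE 0.116, adjusted p = 3.1e-05, edgeR) and -0.85 in hypoxia (SE 0.115, adjusted p = 0.00031, edgeR). Hypoxia over normoxia was 0.06 in WT (adjusted p = 0.71) and 0.41 in FIH-KO cells (adjusted p = 0.031, edgeR), and the interaction 0.35 (adjusted p = 0.75). The gene lies on chromosome 19, where the median log2 fold change of FIH-KO over WT was -0.38 in normoxia and -0.45 in hypoxia, and the part of this shift in its values was not tested.

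The oxygen labels were checked with 8 hypoxia-responsive genes. All 8 rose in WT cells (beside 16.9% of all tested genes) and 7 of 8 in FIH-KO cells (beside 8.84%), and the median log2 fold changes were 3.06 and 2.91. Ndrg1, a stress-response gene, rose 15.6-fold in WT and 10.6-fold in FIH-KO cells, and Bnip3, a mitophagy receptor gene, rose 8.23-fold and 12.7-fold. Vegfa, which encodes an angiogenic growth factor, rose 8.45-fold and 3.92-fold, with an interaction of -1.11 (adjusted p = 0.19, edgeR) that passed with DESeq2 (0.0057), with no filter beyond 1 read (6.4e-06) and without FIH-KO hypoxia replicate 1 (0.04); in normoxia it was 2.3-fold higher in FIH-KO than in WT cells (adjusted p = 0.0003). The interaction of Ndrg1 was -0.55 (adjusted p = 0.8, edgeR), or -0.9988 without FIH-KO hypoxia replicate 1 (adjusted p = 0.049). Ankrd37, a HIF target, rose 11.6-fold and 17.5-fold, and its log2 fold change in WT was 3.53, or 4.13 without WT normoxia replicate 1. Car9, which encodes a membrane carbonic anhydrase, was the exception in FIH-KO cells, with a log2 fold change of -0.22 there (adjusted p = 0.88, edgeR). It passed the filter only through WT hypoxia, and its rise in WT is counted among the 8 without a p. The summed level of the 8 genes differed between the libraries of FIH-KO hypoxia, at 4535 CPM in replicate 1 and 3037 CPM in replicate 2, against 3103 and 2696 CPM in WT hypoxia.

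The labelled cell type and other possible sources of lipid genes were looked for with marker lists. Of 10 lung epithelium markers 3 were tested: Krt8 had the most reads over the 8 libraries together (103.8 to 332.2 CPM), Krt18 had more than Krt8 in the WT libraries together (10168 against 8902 reads), and Epcam, Nkx2-1 and Sftpc had 0 reads in all 8 libraries. Their summed level was 325.7 and 351.6 CPM in WT normoxia, 283.2 and 225.7 in WT hypoxia, 538.6 and 437 in FIH-KO normoxia and 446.9 and 333.8 in FIH-KO hypoxia. None of 8 adipocyte markers passed the filter, and Lep, Retn and Plin1 were at 0. Fabp4, the most abundant of them, had 5, 3, 11 and 7 reads in the WT libraries (normoxia, then hypoxia) and 0 in each FIH-KO library. The adipocyte sum was 0.321 and 0.237 CPM in WT normoxia, 0.785 and 0.751 in WT hypoxia, 0.119 and 0.168 in FIH-KO normoxia and 0.0625 and 0 in FIH-KO hypoxia. Among 8 macrophage markers Adgre1 was at 0 and Cd14 led at 8.9 to 18.89 CPM; their summed level was 16.1 and 14.9 CPM in WT normoxia, 33.0 and 30.1 in WT hypoxia, 24.2 and 19.4 in FIH-KO normoxia and 27.2 and 27.9 in FIH-KO hypoxia. Among 7 endothelial markers Emcn and Cldn5 were at 0, Cdh5 had the most reads over the 8 libraries together (56 in WT and 9 in FIH-KO libraries, beside 15 and 16 of Vwf), and the sum was 0.578 and 0.415 CPM in WT normoxia, 2.69 and 2.05 in WT hypoxia, 0.536 and 0.504 in FIH-KO normoxia and 0.812 and 0.456 in FIH-KO hypoxia. Among 8 fibroblast markers Thy1 was at 0, and Col3a1 made up 98.4% of the summed level, which was 1356 and 1751 CPM in WT normoxia, 605 and 739 in WT hypoxia, 2194 and 1832 in FIH-KO normoxia and 1330 and 1726 in FIH-KO hypoxia. With hypoxia in WT cells, 3 of 5 tested macrophage markers rose and 0 fell. There 1 of 3 lung epithelium markers rose and 1 fell, and 1 of 5 fibroblast markers fell (16.9% and 15.5% of all tested genes). In FIH-KO cells 2 macrophage markers and 1 lung epithelium marker rose (8.84% of all tested genes rose and 8% fell). The macrophage markers that rose include Csf1r and Mrc1, which both passed the filter only through hypoxia libraries. In FIH-KO cells these were the 2 that rose, so nothing is read from these counts. Cdh5, the 1 tested endothelial marker, passed only through WT hypoxia, so no call is given for it. In FIH-KO against WT cells, 1 lung epithelium and 1 macrophage marker rose in normoxia (15.2% of all tested genes rose and 13% fell). In hypoxia 1 lung epithelium marker rose, 1 macrophage marker rose and 1 fell, and 1 fibroblast marker rose and 1 fell (14.1% and 13.9%). The macrophage marker that rose was Lyz2, which passed the filter only through the FIH-KO libraries, so no p is given for it. The adipocyte, macrophage and endothelial sums were thus higher in WT hypoxia than in WT normoxia, as Vldlr was. The adipocyte sum was also lower in every FIH-KO library than in every WT library. Without Fabp4, 65.2% of that list, it was 0 and 0.0592 CPM in WT against 0.119 and 0.168 in FIH-KO normoxia. In hypoxia it was then 0.168 and 0.273 against 0.0625 and 0 CPM. Apart from 0.273 CPM, these values without Fabp4 lie at or under a floor of 3 counts per library (0.168 to 0.205 CPM). The FIH-KO sums with Fabp4 do so too. The part of these sums in the values given here was not tested.

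The members other than Vldlr were tested with all other genes. In FIH-KO against WT cells in normoxia, 3 of the 7 tested members rose and 1 fell, where 15.2% of all tested genes rose and 13% fell. In hypoxia 2 rose and 1 fell, beside 14.1% and 13.9% of all tested genes. The members were listed with these genotype contrasts known, and nothing is read from their counts. Between hypoxia and normoxia in WT cells 2 of 7 rose and 0 fell (16.9% and 15.5% of all tested genes), and in FIH-KO cells 1 rose and 0 fell (8.84% and 8%). At an unadjusted p under 0.05, 4 of the 7 members passed in WT cells and 4 in FIH-KO cells, beside 42.8% and 31.0% of all tested genes. The interaction, which asks whether the effect of FIH-KO differs between the oxygen conditions, gave 0 members and 0% of all tested genes in edgeR; at an unadjusted p under 0.05 it gave 0 members and 925 genes (6.64%), and DESeq2 called 35 genes and 0 members. The genotype contrasts share libraries with the hypoxia contrasts, so their values are set side by side and not compared as independent results.

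**Figure D1:**
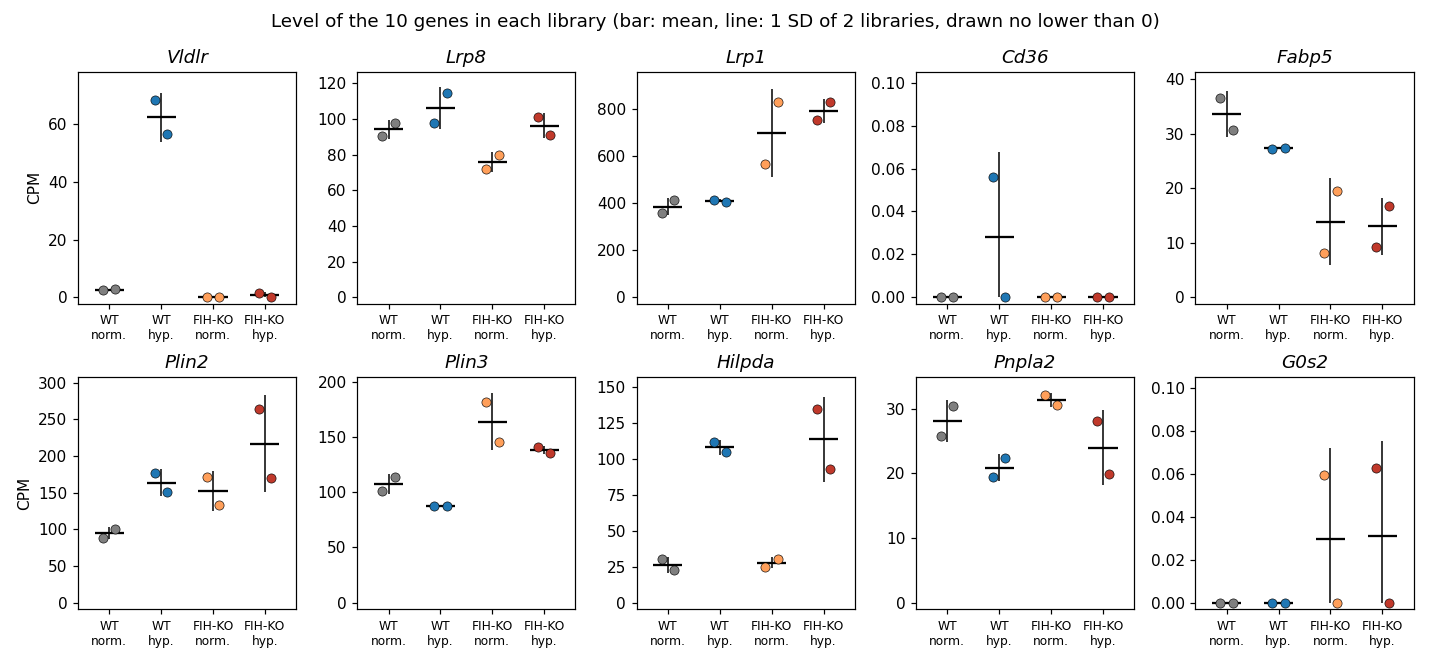
Level in CPM (vertical axes, each starting near 0) of the 10 genes in each of the 8 libraries, by group. Points are libraries, horizontal bars the mean and vertical lines 1 SD of 2 libraries; Vldlr stands at 68.5 and 56.5 CPM in WT hypoxia and at or below 1.44 CPM in the FIH-KO libraries, while Hilpda is high in hypoxia in both genotypes.

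Vldlr (ENSMUSG00000024924.15), the receptor for apolipoprotein E-containing, triglyceride-rich particles, lies on the plus strand at chr19:27193862-27231631 of GRCm39. It had 38 and 48 reads in WT normoxia, 1222 and 828 in WT hypoxia, 1 and 0 in FIH-KO normoxia and 23 and 0 in FIH-KO hypoxia. Both WT hypoxia libraries were far above the other 6, and no FIH-KO library reached the lower WT normoxia library. Of its 2160 reads, 2136 came from WT libraries. The level was 2.64 ± 0.284 CPM in WT normoxia and 62.5 ± 8.46 CPM in WT hypoxia (SD, n = 2 each), a ratio of 23.7 (95% counting interval 19.2 to 29.9). In FIH-KO cells it was 0.0298 ± 0.0421 CPM in normoxia and 0.718 ± 1.02 CPM in hypoxia (SD, n = 2 each). Intervals and floors here and elsewhere cover counting error only.

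The 24 Vldlr reads of FIH-KO cells were unevenly spread. All 23 hypoxia reads were in replicate 1, which also had the higher summed level of the hypoxia-responsive genes, and whether these are connected was not tested. WT over FIH-KO was 88.8 in normoxia (95% counting interval 16.1 to 3671, on 1 FIH-KO read) and 87.0 in hypoxia (57.2 to 136). Taken library by library, WT hypoxia was 43.5 times FIH-KO hypoxia replicate 1 (29.2 to 69.4) and at least 320-fold higher than replicate 2, whose 0 reads were set to a floor of 3 counts in that library. Hypoxia over normoxia in FIH-KO cells was 24.1 (4.13 to 1047), or 48.3 for replicate 1 alone (8.09 to 2051), with 0 reads in replicate 2. WT normoxia over FIH-KO hypoxia was 3.68 (2.26 to 6): 1.84 against replicate 1 alone (1.15 to 3.06) and at least 13.5 against replicate 2. In bulk RNA, fewer cells with the transcript and less transcript in each cell cannot be told apart. The antisense transcript Gm50114 overlaps the gene and had 1 read, in FIH-KO hypoxia replicate 2; the strand setting of the counting is not given in the sources used here.

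The chromosomal surroundings of Vldlr were examined over the 5 tested genes on each side, from 24853050 to 28944211 on chromosome 19. Before Vldlr lie Gm10053, Cbwd1 (Zng1 in the annotation), Dock8, Gm34432 and Smarca2, and after it Pum3, Rfx3, Glis3, Gm5822 and Plpp6. Of these 10, 3 were nearly without reads in FIH-KO cells. Dock8, a guanine nucleotide exchange factor gene, had 170, 159, 169 and 118 reads in the WT libraries (normoxia, then hypoxia) and 4, 0, 5 and 3 in the FIH-KO libraries. Smarca2, a chromatin remodelling ATPase gene that ends 438140 bases before Vldlr, had 113, 151, 160 and 136 against 11, 0, 3 and 0. Glis3, a zinc finger factor gene that lies 1004620 bases after Vldlr, had 202, 252, 301 and 259 against 10, 8, 13 and 5. For each of the 3 genes every FIH-KO library was below every WT library.

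WT over FIH-KO was 85.4 in normoxia and 34.5 in hypoxia for Dock8 (95% counting intervals 34 to 324 and 17.3 to 81). For Smarca2 it was 24.7 and 97.4 (14.1 to 52 and 32.3 to 465), and for Glis3 26.8 and 30.4 (16.9 to 45.9 and 18.8 to 51.1). Single libraries moved these values. With 1 library left out, log2 FIH-KO over WT in normoxia ranged from -10.39 to -5.40 for Dock8 and -10.06 to -3.64 for Smarca2. In hypoxia it ranged from -10.21 to -5.55 for Smarca2 and -5.66 to -4.39 for Glis3. Values under -10 come from groups left with 0 reads and measure no size. These 3 genes were picked out by their low FIH-KO counts and passed the filter through the WT libraries, so no p is given for FIH-KO against WT. In WT cells none of the 3 was called between hypoxia and normoxia, at adjusted p from 0.32 to 0.79 (edgeR), beside the ratio of 23.7 for Vldlr.

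The other 7 of these neighbours differed in degree. Pum3, the nearest tested gene to Vldlr (130683 bases after it), had 182.3 ± 9.27 CPM in WT and 103.2 ± 23.1 CPM in FIH-KO normoxia (SD, n = 2 each) and fell by 0.82 on the log2 scale (adjusted p = 0.0012, edgeR). In hypoxia its value was -0.50 (adjusted p = 0.018), lost without WT hypoxia replicate 1 (0.15), WT hypoxia replicate 2 (0.054) or FIH-KO hypoxia replicate 2 (0.063). Cbwd1 fell by 0.87 in normoxia (adjusted p = 0.0029) and by 0.77 in hypoxia (adjusted p = 0.0053, or 0.064 without WT hypoxia replicate 2). Rfx3, at -0.61 and -0.64 (adjusted p = 0.019 and 0.014, edgeR), lost its normoxia call without any 1 of the 4 normoxia libraries (adjusted p from 0.052 to 0.09) and its hypoxia call without FIH-KO hypoxia replicate 1 (0.074) or WT hypoxia replicate 2 (0.14). Plpp6 passed in hypoxia at -0.82 (adjusted p = 0.048), a call lost in 13 of 15 alternatives: without any 1 of the 8 libraries (0.053 to 0.31), with DESeq2 (0.11), upper-quartile factors (0.052), no filter beyond 1 read (0.06), only the 4 libraries compared (0.12) or a replicate block (0.053), and not in normoxia (-0.58, adjusted p = 0.13; interaction -0.23, adjusted p = 0.94). Gm10053, Gm34432 and Gm5822 were not called in either condition. The chromosome as a whole was lower in FIH-KO cells. Of its 476 tested genes 192 fell in normoxia (40.3%, beside 13% of all tested genes) and 206 in hypoxia (43.3%, beside 13.9%). In normoxia 26 rose (5.46%, beside 15.2%) and in hypoxia 19 (3.99%, beside 14.1%). The median log2 fold changes were -0.38 and -0.45, beside -0.0025 and -0.032 over all tested genes. Whether the state of this chromosome has a part in the Vldlr values was not tested.

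**Figure D2:**
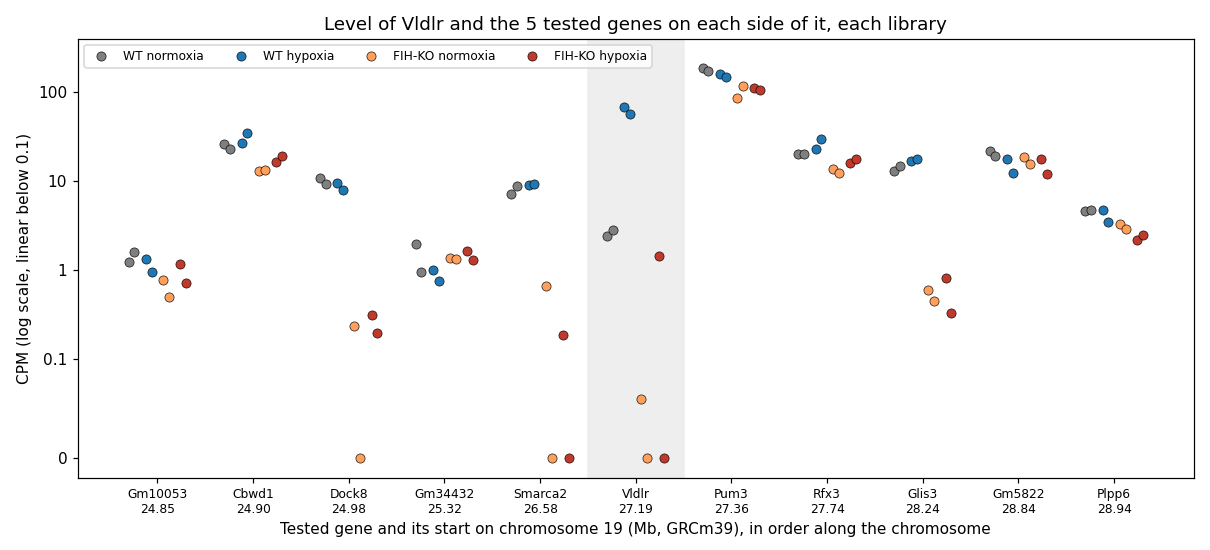
Level in CPM of Vldlr (shaded) and the 5 tested genes on each side of it in all 8 libraries (points, coloured by group), in order along chromosome 19; the vertical axis is logarithmic and linear below 0.1. Dock8, Smarca2, Vldlr and Glis3 have FIH-KO points at or below 1.44 CPM, while the other 7 genes keep FIH-KO levels within a few-fold of WT. Of these 7, Gm10053 and Gm34432 are low in both genotypes, with group means from 0.639 to 1.47 CPM.

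The genes whose pattern was most like that of Vldlr, by the root mean square difference of centred log2 CPM over the 8 libraries, were Ank2 (1.43), Syt7 (1.48), Add3 (1.52), Hpse (1.54) and Zbtb10 (1.55), out of 10576 genes averaging 50 counts or more. Ank2 on chromosome 3 had 80, 91, 243 and 191 reads in the WT libraries (normoxia, then hypoxia) and 6, 1, 7 and 1 in the FIH-KO libraries. Hpse on chromosome 5 had 70, 87, 209 and 183 against 6, 0, 3 and 1. Syt7 and Add3 lie on chromosome 19, as Vldlr does, and Zbtb10 on chromosome 3. These genes were chosen by this likeness, so no test is given.

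Lrp8 (ENSMUSG00000028613.16), the apolipoprotein E receptor that also binds reelin, had 1405 and 1653 reads in WT normoxia, 1740 and 1676 in WT hypoxia, 1207 and 1424 in FIH-KO normoxia and 1619 and 1400 in FIH-KO hypoxia. In CPM the FIH-KO normoxia libraries were below the other 6, and the remaining groups overlapped. The log2 fold change of FIH-KO over WT was -0.31 in normoxia (SE 0.12, adjusted p = 0.072, edgeR) and -0.14 in hypoxia (adjusted p = 0.42). Hypoxia over normoxia gave 0.17 in WT (adjusted p = 0.31) and 0.34 in FIH-KO cells (adjusted p = 0.072), and the interaction 0.17 (adjusted p = 0.88). The normoxia difference passed without FIH-KO hypoxia replicate 1 (adjusted p = 0.039) and with only the 4 libraries compared (0.047), in a range of 0.039 to 0.29. The FIH-KO hypoxia response passed with at least 10 counts in every library (0.37, adjusted p = 0.048), in a range of 0.048 to 0.27. Lrp8, a close relative of Vldlr, thus had over 1000 reads in every library of both genotypes.

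Lrp1 (ENSMUSG00000040249.16), a large endocytic receptor for remnant lipoproteins and many other ligands, had 5603 and 6964 reads in WT normoxia, 7418 and 5975 in WT hypoxia, 9553 and 14874 in FIH-KO normoxia and 12117 and 12757 in FIH-KO hypoxia. All 4 FIH-KO libraries were above all 4 WT libraries. The level rose from 386.3 ± 37.1 to 700.7 ± 186.5 CPM in normoxia (SD, n = 2 each), 1.81-fold (log2 fold change 0.86, SE 0.161, adjusted p = 0.0022, edgeR), and from 411.8 ± 5.56 to 793.6 ± 52.0 CPM in hypoxia (SD, n = 2 each), 1.93-fold (0.95, SE 0.161, adjusted p = 0.0013). Both calls held in all 15 alternatives, the highest adjusted p being 0.046 and 0.018, with a normoxia value of 0.53 without FIH-KO normoxia replicate 2. Hypoxia over normoxia gave 0.09 in WT (adjusted p = 0.7) and 0.18 in FIH-KO cells (adjusted p = 0.49; 0.50 with adjusted p = 0.049 without FIH-KO normoxia replicate 2, and 0.049 to 0.87 over all alternatives).

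Of 22 other lipoprotein receptors and their adaptors 17 were tested: 5 rose and 3 fell in FIH-KO against WT cells in normoxia, 5 rose and 2 fell in hypoxia, 3 rose and 3 fell with hypoxia in WT, and 2 rose and 3 fell in FIH-KO cells. Their median log2 fold changes in these comparisons were 0.12, 0.19, 0.10 and 0.07. Here and for each list after it, the shares of all tested genes that rose and fell were 15.2% and 13% in FIH-KO against WT normoxia, 14.1% and 13.9% in hypoxia, 16.9% and 15.5% with hypoxia in WT, and 8.84% and 8% in FIH-KO cells. Sorl1, a sorting receptor of the same family, had 15, 25, 11 and 4 reads in the WT libraries (normoxia, then hypoxia) and 189, 110, 50 and 55 in the FIH-KO libraries. It rose 7.04-fold in normoxia (adjusted p = 0.00032, edgeR) and 7.21-fold in hypoxia (adjusted p = 0.0012), its hypoxia log2 value moving from 2.85 to 3.61 without WT hypoxia replicate 1. Lrp2, which encodes megalin, had 218, 154, 417 and 349 reads against 22, 59, 67 and 51; its log2 fold changes were -2.31 (-3.16 without FIH-KO normoxia replicate 2) and -2.65, with adjusted p = 0.0005 and 0.00015 (edgeR). Lrp4 fell by 2.11 in normoxia (adjusted p = 0.009, or 0.059 without FIH-KO normoxia replicate 2) and by 2.80 in hypoxia (adjusted p = 0.0025), the latter value being -4.83 without FIH-KO hypoxia replicate 1 and -1.99 without replicate 2. Mylip, a ubiquitin ligase that degrades the VLDL and apolipoprotein E receptors, was named after its values were seen: it had 99, 129, 114 and 113 reads in WT and 523, 436, 434 and 412 in FIH-KO libraries and rose 3.96-fold and 3.83-fold (adjusted p = 2.6e-05 and 3.1e-05, edgeR). Receptor family members thus moved in both directions in FIH-KO cells.

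With hypoxia, the adaptor gene Dab2 fell by 1.18 on the log2 scale in WT and by 0.71 in FIH-KO cells (adjusted p = 7.8e-05 and 0.0036, edgeR), a call kept in all 15 alternatives.

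Of 13 ligands and lipases acting on lipoproteins 7 were tested: 3 rose and 0 fell in FIH-KO against WT cells in normoxia, 3 rose and 1 fell in hypoxia, 3 rose and 1 fell with hypoxia in WT, and 2 rose and 3 fell in FIH-KO cells. The medians were 0.41, 0.35, 0.53 and 0.44. Thbs1, which encodes thrombospondin 1, a matrix protein that binds Vldlr and Lrp1, had 158, 180, 135 and 73 reads in the WT libraries (normoxia, then hypoxia) and 1483, 2566, 688 and 1073 in the FIH-KO libraries. It rose 11.1-fold in normoxia and 8.89-fold in hypoxia (adjusted p = 8.7e-06 and 2.4e-05, edgeR). Lpl, the lipase that frees fatty acids from triglyceride-rich particles, had 115, 104, 110 and 110 reads against 584, 428, 315 and 207 and rose 4.33-fold and 2.43-fold (adjusted p = 9.2e-05 and 0.0024). For both genes each FIH-KO library was above each WT library. Lipg, which encodes endothelial lipase, rose with hypoxia 7.35-fold in WT and 6.68-fold in FIH-KO cells (adjusted p = 0.00013 and 0.00079, edgeR).

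The chaperone gene Clu fell with hypoxia by 1.11 in WT and by 0.74 in FIH-KO cells on the log2 scale (adjusted p = 0.00077 and 0.015, edgeR). The FIH-KO call was lost without FIH-KO hypoxia replicate 1 (-0.49, adjusted p = 0.11) or without either FIH-KO normoxia library (0.092 and 0.05). Lmf1, a lipase maturation factor gene, rose 1.44-fold and 1.35-fold (adjusted p = 0.0098 and 0.037). Its call was lost in WT without WT hypoxia replicate 1 (0.084) or either WT normoxia library (0.093 and 0.095), and in FIH-KO cells without 6 of the 8 libraries in turn (0.051 to 0.12), the exceptions being FIH-KO hypoxia replicate 2 and WT hypoxia replicate 1, with no filter beyond 1 read (0.069) and with only the 4 libraries compared (0.085).

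Cd36 (ENSMUSG00000002944.16), a scavenger receptor and fatty acid translocase, had 1 read in all, in WT hypoxia replicate 1. The floor of 3 counts was 0.168 to 0.205 CPM per library, and a level under it was not detectable at this depth.

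Fabp5 (ENSMUSG00000027533.11), which encodes a cytosolic fatty acid carrier, had 569 and 517 reads in WT normoxia, 486 and 402 in WT hypoxia, 138 and 349 in FIH-KO normoxia and 149 and 257 in FIH-KO hypoxia. All 4 FIH-KO libraries were below all 4 WT libraries, with replicate 1 the lower of the pair in both FIH-KO groups. The level was 33.6 ± 4.20 CPM in WT and 13.88 ± 8.003 CPM in FIH-KO normoxia (SD, n = 2 each), 2.41-fold lower (log2 fold change -1.27, SE 0.325, adjusted p = 0.012, edgeR). In hypoxia it was 27.34 ± 0.1446 and 13.02 ± 5.248 CPM (SD, n = 2 each), 2.1-fold lower (-1.07, SE 0.33, adjusted p = 0.029). These calls were not stable: the normoxia value was -0.80 without FIH-KO normoxia replicate 1 (adjusted p = 0.085), -1.17 without WT normoxia replicate 1 (0.081) and -2.06 without FIH-KO normoxia replicate 2. The hypoxia call was lost with DESeq2 (adjusted p = 0.11), without FIH-KO hypoxia replicate 1 (-0.67, 0.18) and without WT hypoxia replicate 1 (0.12) or 2 (0.11), in a range of 6.9e-07 to 0.18 over all alternatives. Hypoxia over normoxia gave -0.30 in WT and -0.10 in FIH-KO cells (adjusted p = 0.51 and 0.88).

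Of 19 other genes of fatty acid uptake and binding 10 were tested: 1 rose and 5 fell in FIH-KO against WT cells in normoxia, 0 rose and 5 fell in hypoxia, 4 rose and 2 fell with hypoxia in WT, and 3 rose and 2 fell in FIH-KO cells. The medians were -0.44, -0.43, 0.31 and 0.13. Acsl6, a long-chain acyl-CoA synthetase gene, had 705, 771, 544 and 508 reads in the WT libraries (normoxia, then hypoxia) and 99, 132, 65 and 66 in the FIH-KO libraries, and its log2 fold changes were -2.77 and -2.96 (adjusted p = 8.3e-07 and 1.4e-06, edgeR). The related genes Acsl3 and Acsl4 rose with hypoxia in both genotypes, Acsl3 2.09-fold in WT and 1.93-fold in FIH-KO cells (adjusted p = 0.00044 and 0.0018), and Acsl4 1.86-fold and 1.78-fold (adjusted p = 0.00022 and 0.00081). Slc27a3, an acyl-CoA synthetase gene of the transport protein family, fell by 1.12 in normoxia (adjusted p = 0.02) and by 1.68 in hypoxia (adjusted p = 0.002). Its normoxia call was lost without FIH-KO normoxia replicate 1 (0.098), FIH-KO normoxia replicate 2 (0.063) or WT normoxia replicate 1 (-0.81, 0.2).

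Mfsd2a, a lysophospholipid transporter gene, moved with both factors. It had 38, 39, 228 and 133 reads in the WT libraries (normoxia, then hypoxia) and 4, 18, 66 and 24 in the FIH-KO libraries, so that it was higher in hypoxia in each genotype and lower in FIH-KO cells in each condition. Hypoxia over normoxia was 2.20 in WT (adjusted p = 0.0028, edgeR) and 2.16 in FIH-KO cells (adjusted p = 0.022), and FIH-KO over WT -1.90 in normoxia (adjusted p = 0.028) against -1.94 in hypoxia (adjusted p = 0.0059). Single libraries moved these values. FIH-KO over WT in normoxia was -1.25 (adjusted p = 0.19) without FIH-KO normoxia replicate 1, -3.30 without replicate 2, and not called without WT normoxia replicate 1 (0.1) or 2 (0.08). In hypoxia it was -2.76 without FIH-KO hypoxia replicate 1 and not called without WT hypoxia replicate 1 (-1.64, adjusted p = 0.063). The FIH-KO hypoxia response was 1.32 (adjusted p = 0.18) without FIH-KO hypoxia replicate 1, 1.51 (0.14) without FIH-KO normoxia replicate 1, 2.19 (0.059) with only the 4 libraries compared and 3.56 without FIH-KO normoxia replicate 2.

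Plin2 (ENSMUSG00000028494.13), which encodes the main perilipin of droplets outside adipocytes, had 1381 and 1700 reads in WT normoxia, 3156 and 2206 in WT hypoxia, 2876 and 2371 in FIH-KO normoxia and 4222 and 2612 in FIH-KO hypoxia. In CPM both WT normoxia libraries were below the other 6, while WT hypoxia overlapped with both FIH-KO groups. With hypoxia the level rose in WT cells from 94.7 ± 8.45 to 163.7 ± 18.6 CPM (SD, n = 2 each), 1.73-fold (log2 fold change 0.79, SE 0.189, adjusted p = 0.0078, edgeR), a call lost without WT hypoxia replicate 1 (0.63, adjusted p = 0.084) or WT normoxia replicate 1 (0.66, 0.086). In FIH-KO cells it went from 152.0 ± 27.2 to 216.9 ± 66.3 CPM (SD, n = 2 each), with a log2 fold change of 0.51 (SE 0.187, adjusted p = 0.082). This passed the threshold in 4 alternatives: with DESeq2 (adjusted p = 0.039), with no filter beyond 1 read, with the replicate block and without FIH-KO hypoxia replicate 2 (0.79, adjusted p = 0.0042). The adjusted p ranged from 0.0012 to 0.49, and the interaction was -0.28 (adjusted p = 0.88).

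FIH-KO over WT for Plin2 was 0.68 in normoxia (SE 0.189, 1.6-fold, adjusted p = 0.018, edgeR) and 0.41 in hypoxia (SE 0.187, adjusted p = 0.13). The normoxia call was lost without FIH-KO normoxia replicate 1 (0.47, adjusted p = 0.18), WT normoxia replicate 1 (0.16) or WT normoxia replicate 2 (0.064). The hypoxia difference passed with no filter beyond 1 read (adjusted p = 0.0059) and without FIH-KO hypoxia replicate 2 (0.69, adjusted p = 0.008), in a range of 0.0059 to 0.71.

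Plin3 (ENSMUSG00000024197.11), a perilipin that moves between cytosol and nascent droplets, had 1573 and 1920 reads in WT normoxia, 1562 and 1285 in WT hypoxia, 3059 and 2607 in FIH-KO normoxia and 2263 and 2090 in FIH-KO hypoxia. All 4 FIH-KO libraries were above all 4 WT libraries. The level rose from 107.4 ± 8.94 to 164.0 ± 25.6 CPM in normoxia (SD, n = 2 each), 1.53-fold (log2 fold change 0.61, SE 0.123, adjusted p = 0.0033, edgeR), and from 87.6 ± 0.126 to 138.7 ± 3.75 CPM in hypoxia (SD, n = 2 each), 1.58-fold (0.66, SE 0.124, adjusted p = 0.0021). The hypoxia call held in all 15 alternatives. The normoxia call was lost without FIH-KO normoxia replicate 1 (0.42, adjusted p = 0.052) or WT normoxia replicate 1 (0.50, adjusted p = 0.073). Hypoxia over normoxia for Plin3 gave -0.29 in WT (adjusted p = 0.089) and -0.24 in FIH-KO cells (adjusted p = 0.2). The WT value passed without FIH-KO hypoxia replicate 1 (adjusted p = 0.044) or without FIH-KO normoxia replicate 1 or 2 (0.034 each), in a range of 0.026 to 0.34.

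Of 16 other genes of droplet coat and assembly 8 were tested: 2 rose and 1 fell in FIH-KO against WT cells in normoxia, 2 rose and 0 fell in hypoxia, 0 rose and 2 fell with hypoxia in WT, and 0 were called in FIH-KO cells. The medians were 0.03, 0.07, 0.02 and -0.0024. Plin1, Plin5 and Hsd17b13 had 0 reads in the 8 libraries and Plin4 had 1. Hsd17b11, a droplet-associated dehydrogenase gene, rose 1.63-fold in normoxia (adjusted p = 0.0075, edgeR; 0.072, 0.057 and 0.083 without FIH-KO normoxia replicate 1, WT normoxia replicate 1 or WT normoxia replicate 2) and 2.29-fold in hypoxia (adjusted p = 0.00049). Rab18, a droplet-bound GTPase gene, rose 1.48-fold (adjusted p = 0.0023) and 1.32-fold (adjusted p = 0.014, or 0.087 without WT hypoxia replicate 1).

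Hilpda (ENSMUSG00000043421.9), the HIF-induced inhibitor of ATGL, had 469 and 378 reads in WT normoxia, 1991 and 1530 in WT hypoxia, 421 and 544 in FIH-KO normoxia and 2154 and 1422 in FIH-KO hypoxia. The 4 hypoxia libraries were all above the 4 normoxia libraries, and in each oxygen condition the genotypes overlapped. The level rose in WT cells from 26.3 ± 5.48 to 108.0 ± 5.05 CPM (SD, n = 2 each), 4.12-fold (log2 fold change 2.04, SE 0.191, adjusted p = 2.3e-05, edgeR), and in FIH-KO cells from 27.8 ± 3.81 to 113.5 ± 29.7 CPM (SD, n = 2 each), 4.09-fold (2.03, SE 0.19, adjusted p = 3.9e-05). Both calls held in all 15 alternatives, with values of 1.80 to 2.23 and 1.76 to 2.27. FIH-KO over WT was 0.08 in normoxia (SE 0.192, adjusted p = 0.78) and 0.07 in hypoxia (SE 0.178, adjusted p = 0.8), and the interaction was -0.01 (SE 0.262, adjusted p = 1). Hilpda thus rose with hypoxia in both genotypes, and a difference between the genotypes was not called.

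Pnpla2 (ENSMUSG00000025509.16), which encodes ATGL, the first lipase of triglyceride breakdown, had 402 and 514 reads in WT normoxia, 347 and 328 in WT hypoxia, 541 and 547 in FIH-KO normoxia and 450 and 305 in FIH-KO hypoxia. In CPM each hypoxia library was below each normoxia library of its genotype. Hypoxia over normoxia was -0.43 in WT (SE 0.177, adjusted p = 0.083, edgeR) and -0.39 in FIH-KO cells (SE 0.175, adjusted p = 0.15). The WT value passed without FIH-KO hypoxia replicate 1 (adjusted p = 0.021) or 2 (0.029), in a range of 0.021 to 0.33, and the FIH-KO value without FIH-KO hypoxia replicate 1 (-0.64, adjusted p = 0.041, in a range of 0.041 to 0.56). FIH-KO over WT was 0.16 and 0.20 (adjusted p = 0.54 and 0.44). G0s2 (ENSMUSG00000009633.4), another inhibitor of ATGL, had 2 reads in all, 1 in replicate 1 of each FIH-KO group, and lies across from Lamb3 on the other strand.

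Of 14 other genes of neutral lipid breakdown 10 were tested: 1 rose and 0 fell in FIH-KO against WT cells in normoxia, 2 rose and 0 fell in hypoxia, 1 rose and 2 fell with hypoxia in WT, and 0 rose and 1 fell in FIH-KO cells. The medians were 0.05, 0.11, -0.14 and -0.09. Abhd5, the co-activator of ATGL, fell with hypoxia by 0.66 in WT (adjusted p = 0.0033, edgeR) and by 0.54 in FIH-KO cells (adjusted p = 0.016; 0.1 and 0.13 without replicate 1 of FIH-KO hypoxia or of FIH-KO normoxia, and 0.066 with only the 4 libraries compared). Pnpla8, a phospholipase gene of the same family, rose 1.45-fold in normoxia and 1.3-fold in hypoxia in FIH-KO cells (adjusted p = 0.007 and 0.037). That call was lost without FIH-KO normoxia replicate 1 (0.097) or WT normoxia replicate 1 (0.12) in normoxia, and without FIH-KO hypoxia replicate 2 (0.091) or WT hypoxia replicate 1 (0.16) or 2 (0.088) in hypoxia.

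Of 19 genes of neutral lipid synthesis 16 were tested: 5 rose and 1 fell in FIH-KO against WT cells in normoxia, 4 rose and 2 fell in hypoxia, 7 rose and 2 fell with hypoxia in WT, and 3 rose and 1 fell in FIH-KO cells. The medians were 0.20, -0.03, 0.35 and 0.31. Soat2, a cholesterol acyltransferase gene, had 2 and 5 reads in WT normoxia, 371 and 299 in WT hypoxia, 12 and 10 in FIH-KO normoxia and 237 and 79 in FIH-KO hypoxia. Hypoxia over normoxia was 6.53 in WT (7.20 without WT normoxia replicate 2) and 3.96 in FIH-KO cells (3.03 without FIH-KO hypoxia replicate 1). Soat2 passed the filter only through hypoxia libraries, so no p is given for these values. It is 1 of the 7 genes counted as risen with hypoxia in WT and 1 of the 3 in FIH-KO cells. Its relative Soat1 rose 2.2-fold and 1.91-fold (adjusted p = 4.5e-05 and 0.00036), and Lpin2, a phosphatidate phosphatase gene, 2.2-fold and 1.76-fold (adjusted p = 1.7e-05 and 0.00033).

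In FIH-KO against WT cells, the acyltransferase gene Agpat3 rose 1.89-fold in normoxia and 2.02-fold in hypoxia (adjusted p = 0.00019 and 0.00012, edgeR), a call kept in all 15 alternatives. Agpat2 rose 1.53-fold and 2.02-fold (adjusted p = 0.0085 and 0.00056), its normoxia call being lost without FIH-KO normoxia replicate 1 (0.054) or WT normoxia replicate 2 (0.12). Lpin1, a phosphatidate phosphatase gene and HIF target, had 542 and 635 reads in WT normoxia, 1873 and 1313 in WT hypoxia, 2336 and 1398 in FIH-KO normoxia and 2653 and 2266 in FIH-KO hypoxia. It rose 3.0-fold in normoxia (adjusted p = 0.00028) and 1.61-fold in hypoxia (adjusted p = 0.025; 0.063, 0.06 and 0.16 without FIH-KO hypoxia replicate 1, WT hypoxia replicate 1 or WT hypoxia replicate 2), and the interaction was -0.90 (adjusted p = 0.56; 0.0023 with no filter beyond 1 read, in a range of 0.0023 to 1).

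Of 8 PPAR, RXR and coactivator genes, which regulate many genes of lipid handling, 6 were tested: 1 rose and 2 fell in FIH-KO against WT cells in each oxygen condition, and 0 rose and 1 fell with hypoxia in each genotype. The medians were -0.43, -0.47, -0.09 and 0.03 (0.06 with groups at 0 set to their floor). Rxra rose 2.21-fold in normoxia and 2.14-fold in hypoxia (adjusted p = 1.5e-05 and 2.3e-05, edgeR), with 1179, 1298, 928 and 775 reads in the WT libraries (normoxia, then hypoxia) and 2882, 2964, 1801 and 1717 in the FIH-KO libraries. With hypoxia it fell by 0.54 in WT and by 0.59 in FIH-KO cells (adjusted p = 0.0019 and 0.002). Ppargc1a, a coactivator gene of oxidative metabolism, had 13, 14, 11 and 5 reads in the WT libraries and 0 in each FIH-KO library. Against a floor of 3 counts over the 2 libraries of a group, it was at least 9.62-fold lower in FIH-KO normoxia and at least 5.01-fold lower in FIH-KO hypoxia. It passed the filter only through the WT libraries, so no p is given, and it is 1 of the 2 genes counted as fallen in each oxygen condition.

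Over the 7 pathway lists together, 74 of 111 genes were tested. In FIH-KO against WT cells 18 rose (24.3%, beside 15.2% of all tested genes) and 12 fell (16.2%, beside 13%) in normoxia, and 17 rose (23%, beside 14.1%) and 12 fell (16.2%, beside 13.9%) in hypoxia. With hypoxia 18 rose (24.3%, beside 16.9%) and 13 fell (17.6%, beside 15.5%) in WT, and 10 rose (13.5%, beside 8.84%) and 11 fell (14.9%, beside 8%) in FIH-KO cells. The interaction gave 0 calls in edgeR, with 8 of 74 genes (10.8%) at an unadjusted p under 0.05, beside 6.64% of all tested genes. The lists were chosen with earlier results known, and no test of these shares was made. Of the 74 genes 5 lie on chromosome 19: 4 of the 12 that fell in FIH-KO normoxia (Lrp5, Acsl5, Bscl2 and Gpam) and 2 of the 12 that fell in FIH-KO hypoxia (Acsl5 and Gpam) are among them, and 0 of those that rose. These 4 genes were picked out after their values were seen, and Bscl2 and Gpam were the only genes of the droplet coat and synthesis lists that fell in FIH-KO normoxia.

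Levels were compared between the 10 genes as CPM per kilobase of annotated exon (mean ± SD, n = 2). In WT hypoxia Hilpda was the highest at 52.6 ± 2.46, followed by Plin2 (21.3 ± 2.42) and Lrp1 (20.1 ± 0.271), whose libraries overlapped, and Plin3 (12 ± 0.0172). Lrp8 (8.12 ± 0.916) and Fabp5 (7.46 ± 0.0394) overlapped, as did Vldlr (6.15 ± 0.832) and Pnpla2 (5.32 ± 0.529). In WT normoxia Lrp1 led at 18.8 ± 1.81 CPM per kilobase and Vldlr came last of the 8 tested genes at 0.26 ± 0.0279. The order in FIH-KO hypoxia was Hilpda (55.3 ± 14.5), Lrp1 (38.7 ± 2.54), Plin2 (28.2 ± 8.62), Plin3 (19 ± 0.515), Lrp8 (7.37 ± 0.542), Pnpla2 (6.09 ± 1.48), Fabp5 (3.55 ± 1.43) and Vldlr (0.0706 ± 0.0999), all in CPM per kilobase, and only Lrp8 and Pnpla2 among these neighbours had overlapping libraries. Per length, Vldlr thus stood beside Pnpla2 in WT hypoxia and was the lowest of the 8 tested genes in FIH-KO hypoxia.

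The DNA around the start of the canonical transcript of each of the 10 genes was searched for the core letters of the hypoxia response element, ACGTG and GCGTG, on both strands of GRCm39 (CACGT and CACGC when read on the other strand; CACGTG, which other factors also bind, holds ACGTG on both strands). For Vldlr this start is 27194412, inside the annotated gene, and the starts of Cd36, Plin3, Pnpla2 and G0s2 also lie inside the gene. Of the 300 bases before the start, 237 lie in annotated exons for Vldlr, 105 for Lrp8, 185 for Lrp1, 204 for Cd36, 271 for Fabp5, 300 for Pnpla2, 91 for G0s2 and 0 for Plin2, Plin3 and Hilpda. In the 300 bases before the start, 58.5% of 11622 tested protein-coding genes held at least 1 core, and in the first 300 bases from the start 62.9% did. Before the start, Fabp5 and G0s2 had 2 cores, Plin2 had 1 and the other 7 genes had 0. From the start on, Vldlr had 4, Plin2 and Hilpda 3, Pnpla2 2, Lrp8, Lrp1 and Plin3 1, and Cd36, Fabp5 and G0s2 0. Shown for the 3 genes that were higher in WT hypoxia are the sites in the first 300 bases, with 8 flanking bases on each side and the core letters in capitals; all lie in the 5′ UTR and are written 5′ to 3′ on the strand of the gene. The Vldlr sites are on the plus strand at chr19:27194469-27194497, where 3 CACGC cores overlap, and chr19:27194527-27194547. The Hilpda sites are on the plus strand at chr6:29272506-29272526, chr6:29272574-29272594 and chr6:29272609-29272629, and the Plin2 sites on the minus strand at chr4:86588370-86588390 and chr4:86588287-86588308, the latter a CACGTG.
Vldlr site 1: cagccactCACGCACGCACGCtgccactt
Vldlr site 2: agagcggtGCGTGcctgagct
Hilpda site 1: cgcgagccGCGTGctttccgt
Hilpda site 2: gccagcggACGTGccccaggg
Hilpda site 3: ttcggtacGCGTGcgcagtct
Plin2 site 1: ggggttccCACGCcctcatcc
Plin2 site 2: tgggctatCACGTGgctcggag

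The 300 bases before the start are shown for Hilpda and Plin2, which rose in WT hypoxia and whose windows overlap no annotated exon. The Hilpda window (plus strand, chr6:29272109-29272408) held 0 cores, and the Plin2 window (minus strand, chr4:86588460-86588759) held 1 ACGTG, in capitals. A match describes the letters of a window and is neither a site of binding nor a cause of the measured levels.
Hilpda: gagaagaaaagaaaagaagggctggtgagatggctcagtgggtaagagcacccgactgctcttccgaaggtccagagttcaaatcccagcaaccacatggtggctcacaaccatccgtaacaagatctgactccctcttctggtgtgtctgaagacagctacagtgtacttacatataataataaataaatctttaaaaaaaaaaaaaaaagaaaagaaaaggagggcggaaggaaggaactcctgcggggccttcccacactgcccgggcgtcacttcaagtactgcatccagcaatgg
Plin2: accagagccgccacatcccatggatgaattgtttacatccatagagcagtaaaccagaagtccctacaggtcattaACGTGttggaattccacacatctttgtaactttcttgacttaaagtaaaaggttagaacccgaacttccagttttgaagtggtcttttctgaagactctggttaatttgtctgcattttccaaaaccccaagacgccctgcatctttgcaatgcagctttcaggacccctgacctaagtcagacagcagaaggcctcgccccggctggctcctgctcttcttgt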

How the data were processed

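According to the authors, paired-end reads of stranded mRNA libraries were demultiplexed with bcl2fastq, aligned with STAR (GRCm39) and assigned to genes with HTSeq. What they deposited are raw counts, in whole numbers without normalization. Tool versions, the annotation release and the strand setting are not given in the sources used here, and the submitters' processing notes also list DESeq2 and the build GRCm38. Groups came from the sample labels; the deposited description of the series names WT hypoxia in 2 places and FIH-KO hypoxia in none, so all FIH-KO hypoxia values rest on the labels.

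The analysis used edgeR 4.0.16 under R 4.3.3, with low counts filtered by filterByExpr on the groups, TMM factors (0.983 to 1.02), a quasi-likelihood model of all 8 libraries with a mean per group, 5 contrasts, Benjamini-Hochberg adjustment and a threshold of 0.05. The biological coefficient of variation common to all genes was 11.7%. Spread within groups exceeded counting error, the chi-square over its degrees of freedom being 5.66 in WT normoxia, 10.4 in WT hypoxia, 14.9 in FIH-KO normoxia and 23.3 in FIH-KO hypoxia. The steps were tested on simulated data. Counting intervals are exact binomial intervals of the reads of both groups. Positions, exon lengths and starts are from GENCODE for GRCm39, in which 52610 of 53700 identifiers were found. Python 3.11.15, pandas 2.3.3 and matplotlib 3.10.9 handled tables and plots.

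The members and lists were chosen with earlier results of these data known. The lists were lipoprotein receptors and adaptors, ligands and lipases, fatty acid uptake and binding, droplet coat and assembly, neutral lipid synthesis, neutral lipid breakdown, PPAR and partner receptors, hypoxia-responsive genes, and markers of lung epithelium, adipocytes, macrophages, endothelium and fibroblasts. Named are Hif1an and the 10 members; from each pathway list up to 3 genes called in 1 direction in both oxygen conditions and up to 3 called in 1 direction in both genotypes, ranked by the smaller of both absolute log2 fold changes; hypoxia-responsive genes; in each marker list the most abundant gene and those at 0; 5 tested genes on each side of Vldlr; and the 5 genes most like it (log2 CPM with a prior count of 2).

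The alternatives were DESeq2 1.42.0, RLE or upper-quartile factors, no filter beyond 1 read, a minimum of 10 counts in every library, a fit of only the 4 libraries compared, a replicate block, and each of the 8 libraries left out in turn. In each left-out fit the filter, size factors and adjustment were redone. With a group of 1 library, filterByExpr asks for fewer libraries above its cutoff, so the set of tested genes changed with the omitted library.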

Additional observations from a re-analysis of the deposited data

Results flagged for a closer look

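Among the genes named by rule, for 3 every FIH-KO library lay on 1 side of the WT libraries in normoxia and on the other side in hypoxia. The test of that difference, the interaction, did not pass the threshold for Soat2 or Pdk1 in edgeR with its filter on low counts. It passed for each of these genes in at least 1 alternative. Car9 passed the filter only through WT hypoxia, so no p is given for its interaction. Among the other listed genes, picked out after its values were seen, Gpat3 also lay on opposite sides (interaction -0.72, adjusted p = 0.59, edgeR).

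Soat2, a cholesterol acyltransferase gene, had 2 and 5 reads in WT normoxia against 12 and 10 in FIH-KO normoxia, and 371 and 299 in WT hypoxia against 237 and 79 in FIH-KO hypoxia. The gene passed the filter on low counts only through hypoxia libraries, those of both genotypes. FIH-KO over WT was 1.53 in normoxia (adjusted p = 0.22, edgeR) and -1.04 in hypoxia (adjusted p = 0.045), with an interaction of -2.57 (SE 0.938, adjusted p = 0.62). It passed with no filter beyond 1 read (adjusted p = 0.0093) and without FIH-KO hypoxia replicate 1 (-3.46, adjusted p = 0.041), in a range of 0.0093 to 1, and with single libraries left out it lay between -3.46 and -2.001.

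Car9, which encodes a HIF-induced carbonic anhydrase, had 2 and 2 reads in WT normoxia against 5 and 4 in FIH-KO normoxia, and 49 and 27 in WT hypoxia against 5 and 2 in FIH-KO hypoxia. FIH-KO over WT was 1.03 in normoxia (adjusted p = 0.37, edgeR) and -3.33 in hypoxia, with an interaction of -4.36 (SE 0.983). Without FIH-KO hypoxia replicate 1 the interaction was -5.04. Car9 passed the filter only through WT hypoxia, so no p is given for values that include this group.

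Pdk1, a kinase gene that holds pyruvate back from the mitochondria, had 1538 and 1270 reads in WT normoxia against 1250 and 815 in FIH-KO normoxia, and 6091 and 4600 in WT hypoxia against 8708 and 7389 in FIH-KO hypoxia. FIH-KO over WT was -0.54 in normoxia (adjusted p = 0.06, edgeR) and 0.64 in hypoxia (adjusted p = 0.025), with an interaction of 1.18 (SE 0.274, adjusted p = 0.32; 0.0093 with DESeq2 and 1e-07 with no filter beyond 1 read).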

How the results depend on the processing

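With 2 libraries a group and fold changes often under 2, many calls turned on single libraries. The 10 calls of the members kept their direction in all 150 values under the alternatives and passed the threshold in 137. Over all comparisons, 465 of 518 values of the members kept direction and side of the threshold, 13 no longer passed, 18 newly passed and 22 changed sign; for the other named genes it was 1508, 75, 10 and 16 of 1609. Where a library was left out, its lone partner was assumed to vary like the other groups. A level under the floor of 3 counts was not detectable. Other size factors moved the median of all genes by at most 0.028 on the log2 scale. The causes of the changes below were not tested.

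Genes called between hypoxia and normoxia in FIH-KO cells came to 1289 with only the 4 libraries compared. The interaction gave 35 genes with DESeq2 and 143 with no filter beyond 1 read, 2 of them in the pathway lists. Of the members, 4 were called with hypoxia in WT with only the 4 libraries compared, and 2 with hypoxia in FIH-KO cells with DESeq2, with no filter beyond 1 read and with at least 10 counts in every library. The interaction of Hilpda was 0.018 with upper-quartile factors, 0.0074 with no filter beyond 1 read and 0.020 with at least 10 counts. Gm5822 in FIH-KO against WT hypoxia was 0.023 with no filter, 0.0033 with at least 10 counts and 0.016 with only the 4 libraries compared.

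The replicate numbers were not taken to pair the libraries: the correlation of same-numbered deviations over 13933 genes was between -0.010 and 0.19 over the pairs of groups. With the replicate block the interaction gave 5 genes, and 2 members were called with hypoxia in FIH-KO cells.

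With each library left out in turn, the genes called ranged from 1735 (without WT normoxia replicate 1) to 4672 in FIH-KO against WT normoxia, from 2170 (without WT hypoxia replicate 1) to 3887 in FIH-KO against WT hypoxia, from 2124 (without WT normoxia replicate 2) to 5270 with hypoxia in WT, from 1097 (without FIH-KO normoxia replicate 1) to 2604 with hypoxia in FIH-KO cells, and from 0 to 39 (without FIH-KO hypoxia replicate 1) in the interaction. Members called ranged from 1 to 5 in FIH-KO against WT normoxia, from 1 to 4 with hypoxia in WT and from 1 to 2 with hypoxia in FIH-KO cells. Pathway genes called ranged from 16 to 33, from 14 to 30, from 18 to 34 and from 12 to 21 in the 4 comparisons, and from 0 to 1 in the interaction.

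Among log2 fold changes that were not called and changed sign in these omissions, Lrp1 ranged from -0.046 to 0.16 with hypoxia in WT, from -0.051 to 0.50 with hypoxia in FIH-KO cells and from -0.10 to 0.45 in the interaction. Fabp5 ranged from -0.59 to 0.68 with hypoxia in FIH-KO cells and from -0.28 to 1.02 in the interaction. The interaction ranged from -0.56 to 0.0083 for Plin2, from -0.037 to 0.28 for Plin3, from -0.24 to 0.25 for Hilpda and from -0.16 to 0.27 for Pnpla2. FIH-KO against WT for Hilpda ranged from -0.14 to 0.28 (normoxia) and from -0.18 to 0.32 (hypoxia), and for Pnpla2 from -0.032 to 0.43 (hypoxia). For the neighbours of Vldlr it ranged from -0.65 to 0.036 in hypoxia for Gm10053, from -0.58 to 0.48 in normoxia for Gm34432 and from -0.29 to 0.29 in hypoxia for Gm5822. Car9 with hypoxia in FIH-KO cells ranged from -0.93 to 0.25, the interaction of Slc2a1 from -0.28 to 0.54 and that of Plpp6 from -0.42 to 0.065.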
